A study of Arabidopsis thaliana with 9 samples.

Results

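In Arabidopsis thaliana seedlings of 2 mutant alleles of PP4R3A, 36 loci stood at no more than 0.25 times their wild-type exon level in each allele. They were picked on exon counts per 1e6 exon counts of the library (CPM), averaged per genotype, with a Col-0 mean of 5 CPM or more. Of 37869 loci counted, 16250 reached that level, and 39 of these (0.240%) met the limit in both alleles. The loci AT4G35770, AT2G33830 and AT1G31690 were among the 39 and were left out by name, which leaves 36. Because these levels chose the genes, all values against Col-0 for the 36 are descriptions and carry no test.

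PP4R3A is a regulatory subunit of protein phosphatase 4 (PP4), a serine/threonine phosphatase found in most eukaryotes. The regulatory subunits steer the catalytic subunit to its substrates, and in plants the complex has been linked to transcription and the processing of small RNA precursors. The circadian clock, to which several of the 36 genes belong, is a loop in which genes expressed in the morning and genes expressed in the evening repress each other.

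The samples were 12-day-old seedlings grown on Murashige and Skoog (MS) plates in days of 16 h light and 8 h dark, in 3 genotypes with 3 biological replicates each. The wild type was the accession Col-0, which is also the background of the mutants pp4r3a-1 and pp4r3a-2. The kind of mutation each allele carries and the hour of harvest were not stated in the sources used here. Each library was made from polyadenylated RNA of whole seedlings, so fewer cells of a type and less RNA per cell cannot be told apart in these values.

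Exon counts per library ran from 20733294 to 27022497, and 3 counts corresponded to 0.111 to 0.145 CPM. The PP4R3A transcript (AT3G06670) averaged 81.6 ± 1.74 CPM in Col-0, against 62.7 ± 3.4 CPM for pp4r3a-1 and 18 ± 0.378 CPM for pp4r3a-2 (± SD with n = 3, as for all such values here). The library pp4r3a-2 replicate 3 stood apart: chloroplast-encoded loci took 0.962% of its exon counts against 0.427% to 0.558% in the other 8 libraries, and its counts differed from the other pp4r3a-2 libraries with a chi-square per degree of freedom of 8.31 and 12.1, against 1.62 to 3.99 between other replicates. Without it the rule again picked 36 loci, 34 of them shared with the full set. The markers of leaf and root tissue were expressed in every genotype, as whole seedlings hold both. Summed over 5 leaf markers the level ran from 31319 to 32595 CPM in Col-0, against 29684 to 31370 CPM for pp4r3a-1 and 33971 to 35208 CPM for pp4r3a-2. RBCS1A and CAB1 gave most of that sum, with Col-0 means of 12086 and 14629 CPM. LHCA4 rose from a mean of 2049 CPM to 3733 and 4337 CPM, and RCA from 2828 to 3642 and 5061 CPM. By edgeR's test 2 leaf markers were higher and 2 lower in pp4r3a-1, while 3 were higher and 1 lower in pp4r3a-2. Summed over 8 root markers the level ran from 1891 to 1941, 2086 to 2212 and 2017 to 2063 CPM. PYK10, a beta-glucosidase of roots, gave most of that sum, with means of 1786, 2017 and 1924 CPM. Counted by gene, 4 root markers were higher and 1 lower in pp4r3a-1 by edgeR's test, while 2 were higher and 5 lower in pp4r3a-2, CASP1, SHR, SCR and EXPA7 among them (median log2 changes 0.10 and -0.27). The 5 floral markers summed to at most 4.61 CPM in any library. No leaf, root or floral marker was at 0 in all libraries of a genotype, and the part of tissue makeup in the values of the 36 genes was not tested.

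The 36 loci comprised 30 protein-coding genes, 2 loci of the class misc_RNA, 2 of the class ncRNA, 1 long noncoding RNA and 1 pseudogene in the TAIR10.1 annotation of RefSeq, in which they were found by locus tag. They lay on all 5 chromosomes, with 8 on chromosome 1, 6 on chromosome 2, 8 on chromosome 3, 5 on chromosome 4 and 9 on chromosome 5. Apart from 2 overlapping pairs described below, the closest neighbours among them were 171090 bases apart. Their median exon length was 1205 bases, against 1853 over all loci of 5 CPM or more, and 11 of them (30.6%) had a single exon, against 11.6%. Together they took 0.395% to 0.399% of the exon counts in the Col-0 libraries, 0.0721% to 0.0742% in pp4r3a-1 and 0.0751% to 0.0790% in pp4r3a-2.

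The median level of the 36 was 16.6% of Col-0 in each allele, with a range of 1.46% to 24.7% for pp4r3a-1 and 3.00% to 25% for pp4r3a-2. Over all loci of 5 CPM or more the medians were 98.0% and 96.0%. In all 36 loci every Col-0 library lay above every mutant library, which also held for 35.1% of all loci of 5 CPM or more; the rule chose the 36 on this contrast, so nothing is read from that count. Their Col-0 means ran from 5.20 to 872 CPM, and the median coefficient of variation between Col-0 replicates was 4.44%, close to the 3.80% of all loci at that level. In the mutants the coefficient was 9.08% for pp4r3a-1 and 10% for pp4r3a-2, against 4.77% and 4.26% over all loci.

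**Figure D1:**
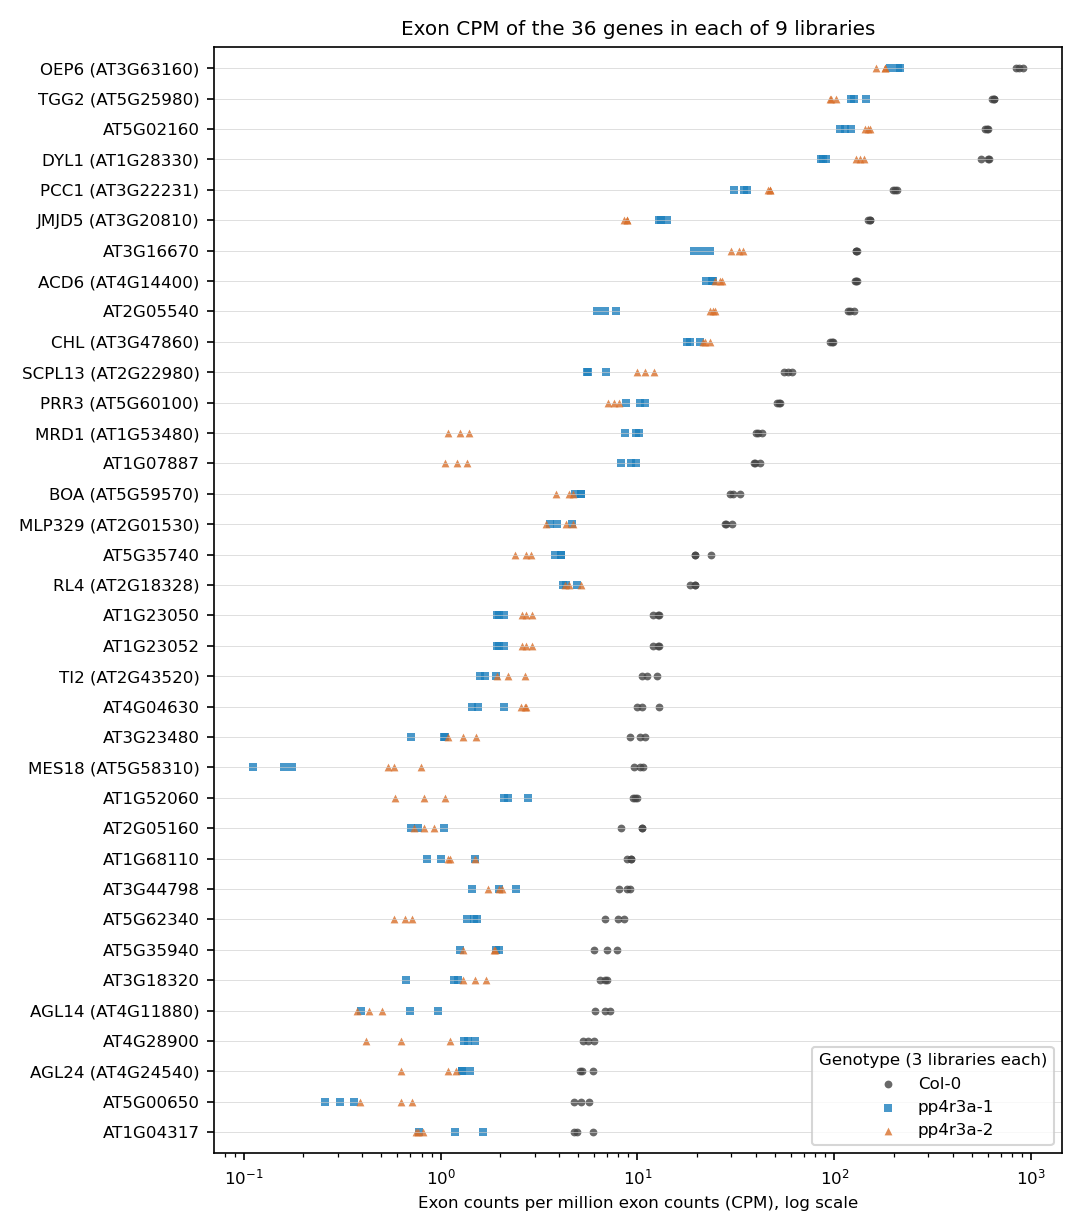
Exon CPM (log scale) of the 36 genes, 1 row per gene ordered by the Col-0 mean, with 1 point per library: Col-0 circles, pp4r3a-1 squares and pp4r3a-2 triangles, 3 libraries each. In each row the Col-0 points lie right of all mutant points, from OEP6 at a Col-0 mean of 872 CPM to AT1G04317 at 5.20 CPM; the alleles are furthest apart in MRD1, AT1G07887, AT2G05540 and MES18.

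Short stretches of the promoters of 6 of these genes show sequence that recurs among them. The promoter was taken as the 300 bases before the RefSeq gene start in TAIR10.1. The build behind the deposited counts was not stated in the sources used here, so genes and promoters were joined by locus tag and not by position. The capitals mark CTTATC or its reverse complement GATAAG, the core of the I-box, and AGATATTTT, the reverse complement of the evening element AAAATATCT, a motif bound by the morning factors CCA1 and LHY. The genes were chosen after their matches were seen, as the most abundant or clock-linked carriers. OEP6 lies on the minus strand, with its I-box match within chr3:23334277-23334312 and its evening element within chr3:23334080-23334118.
OEP6: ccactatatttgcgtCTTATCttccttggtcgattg
OEP6: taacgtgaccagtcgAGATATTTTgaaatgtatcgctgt
AT5G02160, on the plus strand, carries the match next to its start, in chr5:426198-426225, and there CTTATC runs on into TATCCA, a second motif searched.
AT5G02160: cttgaaggggcctacCTTATCcacacac
AT2G05540 has the same joined letters on the plus strand in chr2:2033081-2033116.
AT2G05540: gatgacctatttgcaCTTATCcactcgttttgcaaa
DYL1 lies on the minus strand, with its match in chr1:9935619-9935654.
DYL1: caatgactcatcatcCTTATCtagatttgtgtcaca
JMJD5 lies on the plus strand, with its match in chr3:7275367-7275402.
JMJD5: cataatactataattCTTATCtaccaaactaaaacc
BOA, on the plus strand, holds an I-box match and an evening element together in chr5:24003767-24003868.
BOA: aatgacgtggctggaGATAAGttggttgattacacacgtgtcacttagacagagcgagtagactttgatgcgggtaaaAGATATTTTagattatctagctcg

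The motif GATAAG, searched on both strands, was present in the promoters of 15 of the 36 genes (41.7%), against 14.9% of 37571 promoters and 14.9% of the 16211 promoters of loci with 5 CPM or more. Its carriers were DYL1, OEP6, AT5G02160, AT2G05540, JMJD5 and BOA, and also AT1G23052, MLP329, AT2G05160, RL4, TI2, AT3G18320, AT3G44798, AGL24 and AT5G62340. TATCCA was present in 12 (33.3% against 15.6% and 16.9%). The 2 motifs can share letters, and the joined form CTTATCCA, looked for after the matches were seen, was found in AT2G05160, AT2G05540, AT3G18320, AT5G02160 and AT5G62340 (13.9% of the 36, against 1.16% and 1.42%). The evening element AAAATATCT was present in OEP6 and BOA only among the 36 (5.56% against 2.53% and 2.94%). JMJD5 and PRR3 held no such letters in this window.

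The remaining motifs were closer to their shares among all promoters. The CCA1-binding site AAAAATCT was present in 4 promoters (11.1% against 7.33% and 8.07%), the G-box CACGTG in 3 (8.33% against 6.0% and 7.72%), the HUD box CACATG in 3 (8.33% against 12.9% and 12.7%), the site II element TGGGCC in 6 (16.7% against 12.4% and 18.6%) and the telo-box AAACCCTA in 2 (5.56% against 5.46% and 4.3%). The promoters of the 36 genes held 68.4% A and T bases, against 67.8% and 68.4%. These are letter matches in a fixed window and were not tested.

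**Figure D2:**
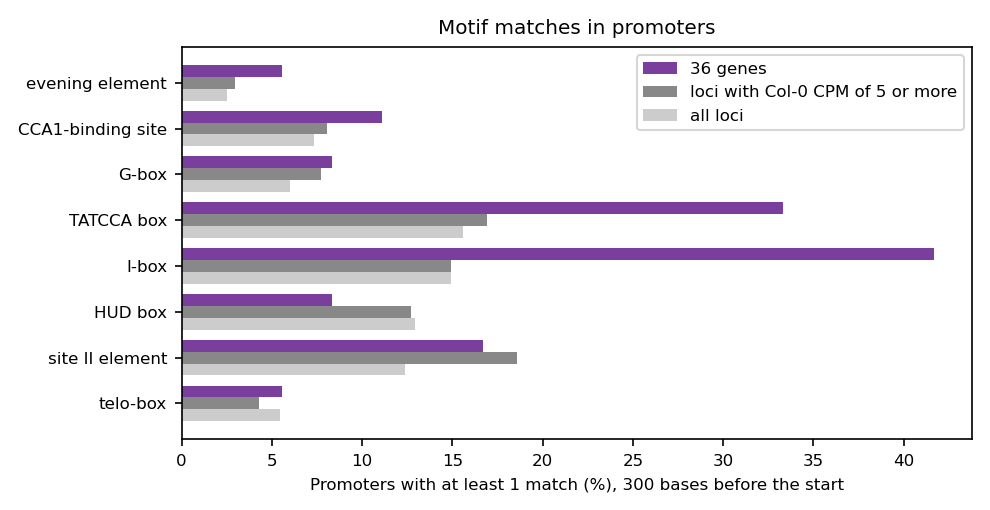
Share of promoters (300 bases before the gene start, in percent) with at least 1 match to each of 8 motifs on either strand, for the 36 genes, for loci with a Col-0 mean of 5 CPM or more, and for all loci. The I-box bar reaches 41.7% for the 36 genes against 14.9% in the other sets, and the TATCCA bar 33.3% against 16.9% and 15.6%.

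Evening-expressed clock genes formed a group of 3. JMJD5 (AT3G20810, also called JMJ30), which encodes a jumonji-domain protein that acts in the clock, was at 152, 148 and 152 CPM in Col-0, against 14.2, 13.2 and 12.8 CPM for pp4r3a-1 and 8.84, 8.53 and 8.87 CPM for pp4r3a-2. All 6 mutant libraries thus lay far below Col-0, and the pp4r3a-2 libraries lay below those of pp4r3a-1. Its means were 8.89% and 5.79% of Col-0. PRR3 (AT5G60100), a pseudo-response regulator that protects the clock protein TOC1 from breakdown, was at 52.7, 51.4 and 52.6 CPM in Col-0, against 8.77, 10.3 and 10.9 CPM for pp4r3a-1 and 8.04, 7.09 and 7.57 CPM for pp4r3a-2. BOA (AT5G59570), a GARP-family transcription factor closely related to LUX of the evening complex, was at 33.0, 29.4 and 30.6 CPM in Col-0, against 5.14, 5.17 and 4.84 CPM for pp4r3a-1 and 4.73, 4.50 and 3.86 CPM for pp4r3a-2. BOA and PRR3 stood at 14.1% to 19.2% of Col-0, and in both genes the pp4r3a-2 libraries lay below all pp4r3a-1 libraries. BOA overlaps AT5G59580 on the opposite strand, and the strandedness of the counting was not stated in these sources, so reads of this pair cannot be told apart.

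The other clock genes moved in several directions. Of 12 further day and evening clock genes tested, 5 were higher and 3 lower in both alleles by edgeR's quasi-likelihood test at an adjusted p under 0.05, a call met by 28.4% and 28.6% of all 22631 genes tested. The 3 lower ones were ELF3, PCL1 (LUX) and TOC1, of which the last 2 are named because they complete the count. ELF3 (AT2G25930), a part of the evening complex, fell, with log2 changes of -1.19 (SE 0.05) and -1.26 (SE 0.05), and GI (AT1G22770), PRR5 (AT5G24470) and PRR7 (AT5G02810) rose by 2.13 and 1.56, by 2.53 and 1.77, and by 2.0 and 2.07 in pp4r3a-1 and pp4r3a-2 (largest edgeR adjusted p of these 4 genes 1.97e-23). The median of the 12 was 0.11 for pp4r3a-1 and -0.39 for pp4r3a-2, where the median of all genes tested was 0.00.

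Morning clock genes moved in the opposite direction to JMJD5, PRR3 and BOA. All 11 tested rose in both alleles by edgeR's test (medians 3.14 and 3.60), a call met by 28.4% of all genes tested. Their summed level ran from 27.6 to 28.6 CPM in Col-0, against 240 to 261 CPM for pp4r3a-1 and 254 to 267 CPM for pp4r3a-2. CCA1 (AT2G46830), a MYB factor that represses evening genes, went from 0.686 ± 0.0546 CPM to 28.7 ± 1.92 and 25.7 ± 1.81 CPM, a log2 rise of 5.38 (SE 0.12) and 5.26 (SE 0.12). AT5G64170, AT3G54500 and AT5G06980 rose by 4.06 and 3.62, 3.04 and 3.60, and 3.63 and 3.99 (largest edgeR adjusted p of these 4 genes 6.04e-26). The part of the clock phase or of the hour of harvest in the low levels of JMJD5, PRR3 and BOA was not tested.

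**Figure D3:**
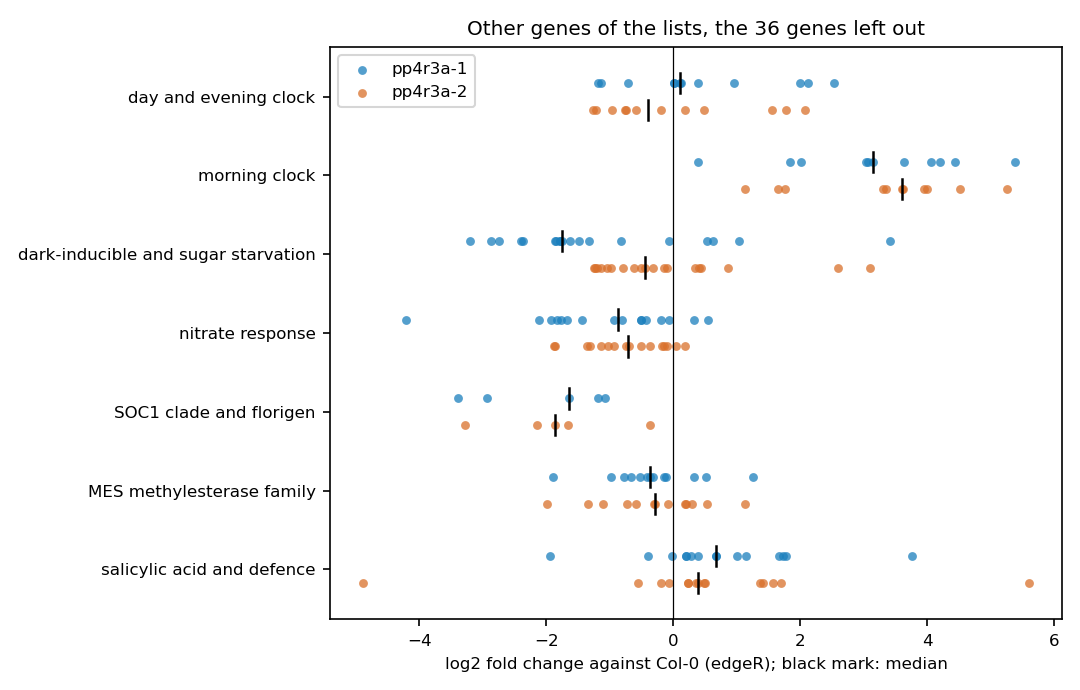
Log2 fold changes against Col-0 (edgeR) of the genes in 7 lists, with the 36 genes left out: 1 point per gene, pp4r3a-1 in blue above pp4r3a-2 in orange, black marks for list medians. All 11 morning clock genes lie right of 0 and all 5 tested genes of the SOC1 clade and florigen list lie left of 0, while the day and evening clock list spreads to both sides with medians of 0.11 and -0.39.

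PCC1 and ACD6, both known from pathogen response, were low in both alleles. PCC1 (AT3G22231), named for its control by pathogens and the clock, was at 198, 203 and 208 CPM in Col-0, against 36.1, 34.8 and 30.8 CPM for pp4r3a-1 and 47.2, 46.9 and 46.2 CPM for pp4r3a-2. ACD6 (AT4G14400), a membrane protein with ankyrin repeats that promotes salicylic acid signalling, was at 129, 128 and 131 CPM in Col-0, against 22.3, 23.9 and 24.3 CPM for pp4r3a-1 and 26.4, 27.0 and 24.7 CPM for pp4r3a-2. Both genes were lowest in pp4r3a-1, at 16.7% of Col-0 for PCC1 and 18.2% for ACD6. The other genes of salicylic acid and defence did not share this direction: 9 of 15 rose in both alleles by edgeR's test and 1, PRB1, fell (medians 0.67 and 0.39). Over all genes tested 28.4% rose and 28.6% fell in both alleles. PR1 (AT2G14610), a marker of the salicylic acid response, went from 0.842 ± 0.213 CPM to 11.4 ± 1.87 and 39.8 ± 3.18 CPM, a rise of 3.76 (SE 0.17) and 5.60 (SE 0.13) with a largest edgeR adjusted p of 5.57e-16. EDS16 (AT1G74710), the isochorismate synthase of salicylic acid synthesis, rose by 1.66 and 1.36, CBP60G by 1.77 and 1.57 and AIG1 by 1.73 and 1.70 (largest edgeR adjusted p 1.68e-13).

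DYL1 (AT1G28330, also called DRM1), a dormancy-associated gene known for high levels in resting buds, was at 556, 608 and 602 CPM in Col-0, against 90.5, 87.2 and 85.2 CPM for pp4r3a-1 and 135, 141 and 129 CPM for pp4r3a-2. The pp4r3a-1 libraries were the lowest, and no library of 1 allele overlapped the other. AT4G04630, annotated as a senescence regulator of the DUF584 family, was at 9.91, 10.6 and 12.9 CPM in Col-0, against 2.11, 1.45 and 1.54 CPM for pp4r3a-1 and 2.68, 2.56 and 2.70 CPM for pp4r3a-2, in the same order of genotypes.

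Among 19 other genes induced by darkness or sugar starvation, 10 fell and 4 rose in both alleles by edgeR's test. Over all genes tested 28.6% fell and 28.4% rose in both. Taken by allele, 14 were lower and 4 higher in pp4r3a-1, and 11 lower and 6 higher in pp4r3a-2. The shares of all genes tested were 36.1% and 35.8% lower, and 36.3% and 35.6% higher. The medians of the list were -1.75 and -0.44. TPS8 and TPS11 were lower in pp4r3a-1 and higher in pp4r3a-2, with log2 changes of -1.79 and 0.43, and of -1.48 and 0.40. STP1 (AT1G11260), a hexose transporter of the plasma membrane, fell, with log2 changes of -2.75 (SE 0.04) and -1.2 (SE 0.04), as did AKINBETA1 (AT5G21170), a subunit of the SnRK1 kinase, with -2.40 and -1.23, and MCCA (AT1G03090), an enzyme of leucine breakdown, with -1.78 and -1.04. DIN2 (AT3G60140), a beta-glucosidase gene, rose by 3.42 (SE 0.09) and 3.10 (SE 0.10); the largest edgeR adjusted p of these 4 genes was 1.91e-22. The genes left out by name in this list were SEN1 (AT4G35770), at 228 CPM in Col-0 and 7.96 and 45.9 CPM in the mutants, and AT2G33830, at 973, 40.0 and 109 CPM. Like DYL1, both were lower in pp4r3a-1 than in pp4r3a-2.

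OEP6 was the most abundant of the 36 in Col-0. OEP6 (AT3G63160), annotated as an outer envelope membrane protein, was at 913, 866 and 838 CPM in Col-0, against 210, 192 and 215 CPM for pp4r3a-1 and 180, 180 and 162 CPM for pp4r3a-2. Per kilobase of exon it was also the highest of the 36 in Col-0, at 1671 CPM, ahead of AT5G02160 at 597, DYL1 at 376 and TGG2 at 326 CPM per kilobase. CHL (AT3G47860), the chloroplastic lipocalin, which acts in lasting heat dissipation of absorbed light, was at 98.3, 95.2 and 97.7 CPM in Col-0, against 20.8, 18.4 and 17.8 CPM for pp4r3a-1 and 22.1, 23.3 and 21.4 CPM for pp4r3a-2. AT5G02160, annotated as an uncharacterized protein, was at 583, 594 and 603 CPM in Col-0, against 121, 113 and 107 CPM for pp4r3a-1 and 152, 149 and 143 CPM for pp4r3a-2. OEP6 was thus lower in pp4r3a-2, while CHL and AT5G02160 were lower in pp4r3a-1, with no overlap between alleles in these 3 genes. AT5G02160 overlaps AT5G02150 on the opposite strand, so its count is uncertain.

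TGG2 and SCPL13, 2 enzyme genes, were low in both alleles. TGG2 (AT5G25980), a myrosinase that splits glucosinolates when tissue is damaged, was at 629, 644 and 650 CPM in Col-0, against 122, 144 and 126 CPM for pp4r3a-1 and 96.2, 94.7 and 102 CPM for pp4r3a-2. Its close paralog TGG1 (AT5G26000) went from 2237 ± 45.5 CPM to 1117 ± 41.8 and 849 ± 16.4 CPM, a log2 change of -1.0 (SE 0.04) and -1.35 (SE 0.04) (largest edgeR adjusted p 2.13e-24). Reads that match both genes may have been split between them. SCPL13 (AT2G22980), of the serine carboxypeptidase-like family, whose members include acyltransferases of secondary metabolism, was at 55.4, 58.3 and 61.0 CPM in Col-0, against 5.62, 6.90 and 5.54 CPM for pp4r3a-1 and 12.1, 10.9 and 9.98 CPM for pp4r3a-2. Of 10 other members of this family tested, a set gathered by symbol after values were seen, 8 fell and 1 rose in both alleles by edgeR's test. These calls were met by 28.6% and 28.4% of all genes tested. SCPL12 (AT2G22920), on the same chromosome, had log2 changes of -1.08 and -1.67, SCPL51 of -0.77 and -0.66, SCPL49 of -0.49 and -0.70 and SCPL45 of -0.45 and -0.49 (largest edgeR adjusted p 8.04e-10).

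TI2 (AT2G43520), a trypsin inhibitor gene, was at 12.5, 10.5 and 11.2 CPM in Col-0, against 1.92, 1.69 and 1.58 CPM for pp4r3a-1 and 2.68, 2.21 and 1.93 CPM for pp4r3a-2. Its neighbour by locus number, TI1 (AT2G43510), rose from 10.2 ± 0.266 CPM to 46.8 ± 3.44 and 32.8 ± 1.17 CPM, by log2 2.20 (SE 0.06) and 1.72 (SE 0.07) (largest edgeR adjusted p 4.69e-23). These 2 inhibitor genes therefore differed in direction in both alleles. MLP329 (AT2G01530), of the major latex protein-like family, was at 28.0, 27.9 and 30.2 CPM in Col-0, against 3.59, 3.91 and 4.66 CPM for pp4r3a-1 and 4.69, 3.45 and 4.34 CPM for pp4r3a-2, with overlapping alleles. Of 8 other genes tested with MLP symbols, a set gathered by symbol alone, 4 rose and 4 fell in both alleles by edgeR's test. These calls were met by 28.4% and 28.6% of all genes tested. MLP-300B (AT3G16440), 1 of the 4 that fell, matched by symbol only and is not taken as a major latex protein-like gene. MLP328 (AT2G01520), the adjacent locus number, had log2 changes of -0.57 and -2.22, MLP43 of -0.39 and -0.64, MLP28 of 1.1 and 0.94 and MLP168 of 1.01 and 1.07 (largest edgeR adjusted p 6.53e-08). MLP328 and MLP329 may share reads.

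The mannose-binding lectin genes AT1G52060 and AT5G35940 were both low in each allele. AT1G52060 was at 9.75, 10 and 9.51 CPM in Col-0, against 2.78, 2.1 and 2.20 CPM for pp4r3a-1 and 0.586, 1.05 and 0.820 CPM for pp4r3a-2. All pp4r3a-2 libraries of AT1G52060 lay below those of pp4r3a-1. AT5G35940 had means of 6.96, 1.72 and 1.68 CPM, and its alleles overlapped.

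Several genes encode secreted or cell wall proteins. AT2G05540, of a glycine-rich protein family, was at 120, 126 and 117 CPM in Col-0, against 7.77, 6.21 and 6.82 CPM for pp4r3a-1 and 24.8, 24.3 and 23.3 CPM for pp4r3a-2. It stood at 5.72% of Col-0 in pp4r3a-1 and at 19.9% in pp4r3a-2, with the pp4r3a-2 libraries all above those of pp4r3a-1. AT3G16670, of the pollen Ole e 1 allergen and extensin family, was at 129, 129 and 130 CPM in Col-0, against 21.2, 23.3 and 19.4 CPM for pp4r3a-1 and 29.9, 34.5 and 32.6 CPM for pp4r3a-2. AT5G35740, with a carbohydrate-binding X8 domain, was at 19.6, 19.5 and 23.6 CPM in Col-0, against 4.07, 3.79 and 4.09 CPM for pp4r3a-1 and 2.89, 2.40 and 2.70 CPM for pp4r3a-2. AT5G62340, of the invertase and pectin methylesterase inhibitor family, was at 6.83, 7.92 and 8.57 CPM in Col-0, against 1.48, 1.53 and 1.36 CPM for pp4r3a-1 and 0.712, 0.659 and 0.579 CPM for pp4r3a-2. AT2G05540 and AT3G16670 were thus lower in pp4r3a-1, and AT5G35740 and AT5G62340 lower in pp4r3a-2. AT1G23050, annotated as a hydroxyproline-rich glycoprotein, went from 12.5 to 2.01 and 2.74 CPM. The noncoding locus AT1G23052 spans the same interval on the opposite strand and has identical counts in every library, so the pair is 1 measurement entered under 2 names.

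Regulators of flowering and development included the MADS-box genes AGL14 and AGL24. AGL14 (AT4G11880), which acts in root growth and flowering, was at 6.12, 6.82 and 7.28 CPM in Col-0, against 0.703, 0.969 and 0.396 CPM for pp4r3a-1 and 0.377, 0.504 and 0.434 CPM for pp4r3a-2. AGL24 (AT4G24540), a promoter of flowering, was at 5.21, 5.11 and 5.95 CPM in Col-0, against 1.41, 1.29 and 1.28 CPM for pp4r3a-1 and 1.09, 1.2 and 0.627 CPM for pp4r3a-2. AGL14 stood at 10.2% and 6.50% of Col-0, AGL24 at 24.4% and 17.9%. Of the other genes around AGL14, the SOC1 clade and the florigen pathway, all 5 tested fell in both alleles by edgeR's test. That call was met by 28.6% of all genes tested. The 5 were AGL20 (SOC1), AGL42, FT and CO by the naming rule, and AGL19 as the one left in the count. CO (AT5G15840), which activates FT in long days, had log2 changes of -1.64 (SE 0.11) and -1.65 (SE 0.12), FT (AT1G65480), the mobile flowering signal, of -2.93 (SE 0.33) and -2.15 (SE 0.30), and SOC1 (AT2G45660) of -1.07 and -0.36 (largest edgeR adjusted p 2.52e-07). AGL42 went from 1.19 CPM to 0.113 and 0.112 CPM, which is at the level of 3 counts in these libraries, so the size of its fall is uncertain. FT was also low, going from 1.58 CPM to 0.195 ± 0.131 and 0.332 ± 0.123 CPM, so its fold is uncertain too.

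RL4 (AT2G18328), a RADIALIS-like MYB gene, was at 18.4, 19.5 and 19.6 CPM in Col-0, against 4.92, 4.32 and 4.18 CPM for pp4r3a-1 and 4.48, 5.19 and 4.29 CPM for pp4r3a-2. The alleles overlapped in this gene. Of 5 other genes with RL symbols, a set gathered by symbol alone, 4 fell and 1 rose in both alleles by edgeR's test. These calls were met by 28.6% and 28.4% of all genes tested. RL2 (AT5G45160), 1 of the 4 that fell, matched by symbol only and is not taken as a RADIALIS-like gene. RL5 had log2 changes of -1.76 and -1.26, RL6 of -1.94 and -1.0 and RL2 of -0.16 and -0.26 (largest edgeR adjusted p 0.00904; RL2 missed the threshold in pp4r3a-1 without Col-0 replicate 1, with -0.12 and an edgeR adjusted p of 0.0850), and RL1 had 1.69 CPM in Col-0, against 0.0674 CPM for pp4r3a-1 and no count for pp4r3a-2. AT2G05160, encoding a CCCH-type zinc finger protein, was at 10.5, 8.23 and 10.5 CPM in Col-0, against 1.04, 0.767 and 0.704 CPM for pp4r3a-1 and 0.921, 0.736 and 0.820 CPM for pp4r3a-2, with nearly the same level of 8.56% and 8.47% of Col-0 in the alleles. AT3G18320, an F-box gene, went from 6.76 to 1.02 and 1.5 CPM.

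MES18 (AT5G58310), of the methylesterase family, which removes methyl groups from hormone esters, was the lowest of the 36 relative to Col-0 in pp4r3a-1, at 1.46%. In pp4r3a-2 it stood at 6.26%, above AT1G07887, MRD1 and JMJD5. It had 244, 265 and 249 counts in Col-0, against 3, 4 and 4 for pp4r3a-1 and 19, 14 and 12 for pp4r3a-2, or means of 10.2, 0.149 and 0.639 CPM. The pp4r3a-1 counts are near the floor of 3 counts, so the depth of that drop is uncertain, and MES18 overlaps AT5G58300 and AT5G08825 on the opposite strand. Of 13 other methylesterase genes tested 4 fell and 3 rose in both alleles by edgeR's test, near the 28.6% and 28.4% of all genes tested. MES7 (AT2G23560) fell, with log2 changes of -1.90 (SE 0.14) and -1.99 (SE 0.15), MES3 with -0.98 and -0.59, and MES9 rose by 1.25 and 1.13 (largest edgeR adjusted p 1.53e-07), while ACL (AT2G23600) had -0.42 for pp4r3a-1 and 0.29 for pp4r3a-2 (edgeR adjusted p 1.62e-11 and 5.81e-08).

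MRD1 (AT1G53480), a gene named for its drop in the methionine-overaccumulating mutant mto1, showed the widest gap between alleles. It was at 40.9, 42.9 and 40.2 CPM in Col-0, against 10.2, 8.64 and 9.85 CPM for pp4r3a-1 and 1.09, 1.40 and 1.25 CPM for pp4r3a-2, or 23.1% and 3.02% of Col-0. AT1G07887, a long noncoding RNA on the opposite strand, had nearly the same values, at 39.7, 41.7 and 39.0 CPM, 9.88, 8.27 and 9.32 CPM, and 1.05, 1.36 and 1.21 CPM. MRD1 lies at chr1:19963047-19964712 on the minus strand and AT1G07887 at chr1:19963067-19964105 on the plus strand, so their reads cannot be told apart. AT1G53490, on the plus strand, overlaps both and met the rule at a ratio limit of 0.3, so its reads may also enter these counts. MRD1 stood in a list drawn up by hand for variable silencing, with 4 other genes. Silencing was not tested at these loci or at MRD1. Of the 4, DML1 (ROS1, AT2G36490), a DNA demethylase gene, had log2 changes of -0.90 and -1.05 in pp4r3a-1 and pp4r3a-2. FWA had 1.71 and 3.69 (largest edgeR adjusted p of both genes 0.00291). FWA had 0.106 CPM in Col-0, which is below 3 counts in a library, so its fold is uncertain. SDC and QQS did not pass in both alleles.

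The remaining loci were low in Col-0. AT3G23480, annotated as a cyclopropane-fatty-acyl-phospholipid synthase, was at 10.3, 9.20 and 10.9 CPM in Col-0, against 1.04, 1.05 and 0.704 CPM for pp4r3a-1 and 1.51, 1.09 and 1.3 CPM for pp4r3a-2, and it overlaps AT3G23470 and AT3G23490. AT1G68110, with an ENTH/ANTH/VHS domain of vesicle coats, was at 9.28, 8.85 and 9.30 CPM in Col-0, against 0.851, 1.01 and 1.5 CPM for pp4r3a-1 and 1.09, 1.12 and 1.5 CPM for pp4r3a-2. AT5G00650, of the class misc_RNA, had 121, 133 and 133 counts in Col-0, against 7, 9 and 7 for pp4r3a-1 and 17, 10 and 13 for pp4r3a-2. These 3 loci stood at 5.94% to 13.5% of Col-0. AT1G04317, which overlaps AT1G04323 on its own strand, and the noncoding AT3G44798 had Col-0 means of 5.20 and 8.70 CPM, and 1.21 and 1.95 CPM in pp4r3a-1 against 0.780 and 1.92 CPM in pp4r3a-2. The pseudogene AT4G28900 was at 5.29, 6.04 and 5.61 CPM in Col-0, against 1.37, 1.49 and 1.32 CPM for pp4r3a-1 and 0.419, 1.12 and 0.627 CPM for pp4r3a-2. Its pp4r3a-2 libraries all lay below those of pp4r3a-1.

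The rule set the same upper limit on the level of each allele but did not use the difference between the alleles, which was tested. MRD1 with AT1G07887, and AT1G23050 with AT1G23052, share reads and are counted separately here. Of the 36 genes, all tested, 15 were higher and 10 lower in pp4r3a-2 than in pp4r3a-1 by edgeR's test, while 24.2% of all 22631 genes tested were higher and 23.7% lower. Without pp4r3a-2 replicate 3 the counts were 14 and 10. The median log2 difference was 0.09 and the median absolute difference 0.50, against 0.00 and 0.19 over all genes tested. For the 36, median coefficients of variation between mutant replicates were 9.08% and 10%, against 4.77% and 4.26% over all loci of 5 CPM or more. The 36 and all genes are thus not like for like in the size of a difference. In 16 genes every pp4r3a-2 library lay above every pp4r3a-1 library and in 12 below, and in 8 the libraries overlapped. Over all genes tested 22.4% lay above and 30.8% below in this way.

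The largest differences were in opposite directions. MRD1 was lower in pp4r3a-2 by a log2 difference of -2.89 (SE 0.13; edgeR adjusted p 2.94e-20), and AT1G52060 by -1.48 (SE 0.21; edgeR adjusted p 2.11e-07). AT5G62340 followed with -1.12 and AT4G28900 with -0.88 (SE 0.25), whose edgeR adjusted p of 0.00440 was lost when pp4r3a-2 replicate 1 was left out, with a difference of -0.58. The 3 clock genes were also lower in pp4r3a-2, JMJD5 by -0.58 (SE 0.07; edgeR adjusted p 5.97e-09) and PRR3 by -0.36 (SE 0.09; edgeR adjusted p 0.000676), with -0.17 (SE 0.11; edgeR adjusted p 0.230) for BOA, which did not pass. AT5G35740 and the abundant genes TGG2 and OEP6 passed with -0.55, -0.38 and -0.20.

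In the other direction MES18 had a difference of 2.11 (SE 0.40; edgeR adjusted p 3.40e-05), which rests on 3 or 4 counts per pp4r3a-1 library. AT2G05540 was higher in pp4r3a-2 by 1.83 (SE 0.07; edgeR adjusted p 3.23e-22) and SCPL13 by 0.91 (SE 0.09; edgeR adjusted p 1.12e-10). DYL1 was higher by 0.66 (SE 0.04; edgeR adjusted p 4.41e-16), AT4G04630 by 0.66 (SE 0.18) and AT3G16670 by 0.64 (SE 0.06). PCC1, AT5G02160, CHL and ACD6 passed with smaller differences of 0.50, 0.42, 0.27 and 0.19. AT5G00650, with 0.91 (SE 0.36; edgeR adjusted p 0.0351), lost its call in 4 of the 6 fits that left out a mutant library. It also lost its call with DESeq2, with 0.92 and a DESeq2 adjusted p of 0.0662.

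**Figure D4:**
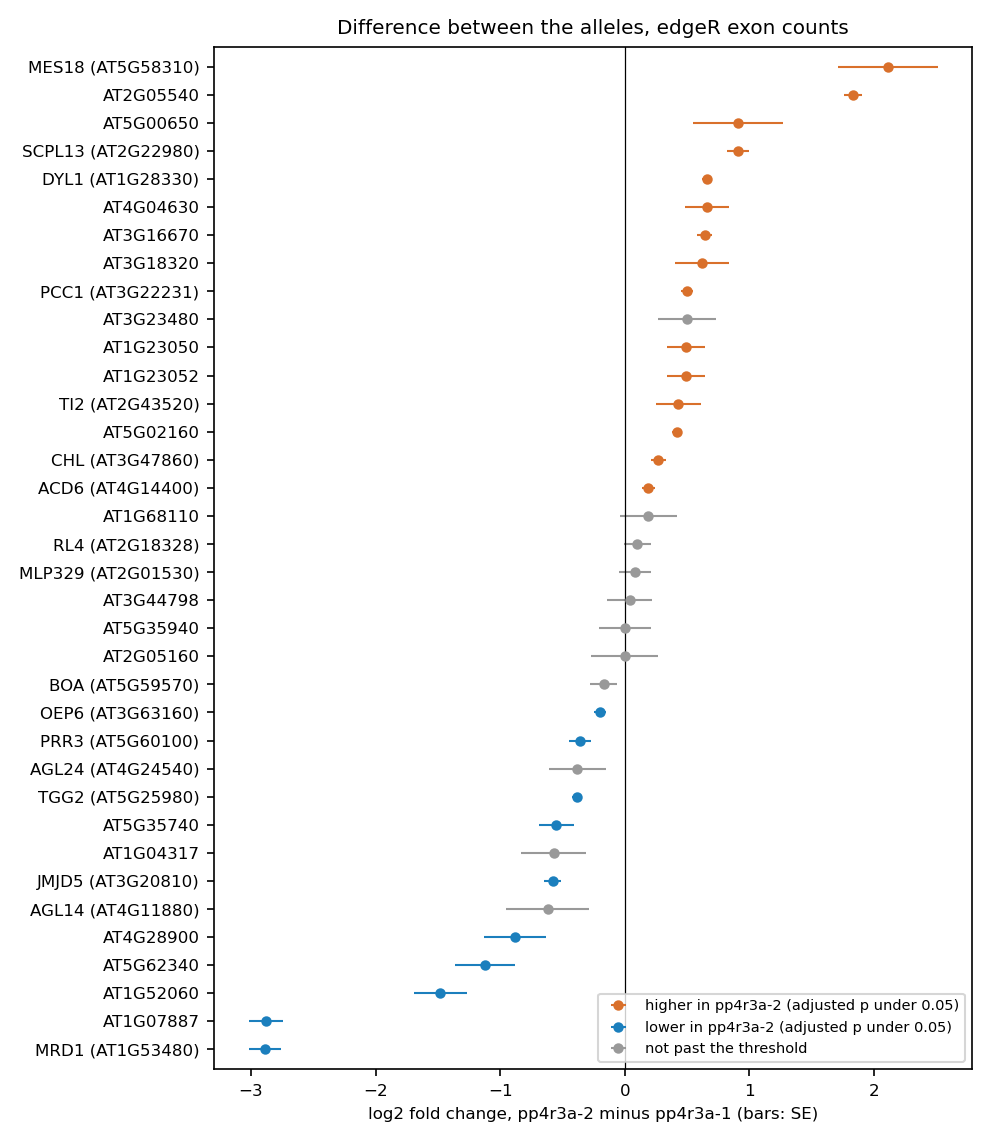
Log2 difference in exon level between pp4r3a-2 and pp4r3a-1 (x axis, edgeR) for the 36 genes, with SE bars, in orange where higher in pp4r3a-2, in blue where lower and in grey where the adjusted p was 0.05 or more. The points run from -2.89 for MRD1 to 2.11 for MES18, with 15 orange, 10 blue and 11 grey.

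Intron counts, which can include RNA not yet spliced, gave a further view of the same genes. The source of the intron reads was not tested. They were sparse: 16 of the 36 reached 10 or more intron counts in every Col-0 library, and 6 had none in any library. The libraries differed in intron reads as a whole, with 2.05 to 2.14 intron counts per 100 exon counts in Col-0, 3.12 to 3.34 in pp4r3a-1 and 3.00 to 3.07 in pp4r3a-2. Per 1e6 exon counts, the median intron level of the 16 genes was 26.5% of Col-0 for pp4r3a-1 and 20.9% for pp4r3a-2, against 167% and 156% over 6819 loci of the same intron and exon minimum. Their exon medians were 17.4% and 14.9%. In 15 of the 16 the intron level was below Col-0 in each allele. It was at most 0.25 times Col-0 in 7 of the 16 for pp4r3a-1 and 11 for pp4r3a-2. That limit was met by 0.323% and 0.220% of the 6819 loci, which include the 16. Intron and exon counts come from the same libraries, and the exon contrast chose the genes, so this too is a description.

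In SCPL13 and JMJD5, which had the most intron counts of the 36 in Col-0, introns and exons were low together. SCPL13 had 365, 360 and 372 intron counts in Col-0, against 50, 46 and 43 for pp4r3a-1 and 118, 117 and 96 for pp4r3a-2, or 12.6% and 31.8% of Col-0 per 1e6 exon counts. JMJD5 had 309, 377 and 304 in Col-0, against 63, 66 and 51 for pp4r3a-1 and 46, 44 and 37 for pp4r3a-2, or 18.1% and 13.6%. In both genes all mutant libraries lay well below Col-0, as they did for exons. ACD6 stood at 32.1% and 41.7%, TGG2 at 26.6% and 17.9%, PRR3 at 31.1% and 21.0% and AT2G05540 at 17.6% and 24.8%. OEP6 stood at 12.9% and 25% and AT1G07887 at 26.4% and 2.18%. RefSeq gives each of these last genes 1 exon, and the rule by which intron counts were made was not stated, so it is uncertain which bases their intron counts cover.

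In DYL1 and AT5G02160 the intron level was closer to Col-0 than the exon level was. Their intron levels still lay below the medians of 167% and 156% over the 6819 loci of the same intron and exon minimum. DYL1 had 18, 18 and 17 intron counts in Col-0, against 19, 18 and 25 for pp4r3a-1 and 24, 17 and 12 for pp4r3a-2, or 118% and 105% of Col-0, beside exon levels of 14.9% and 22.9%. AT5G02160 had 157, 151 and 174 intron counts in Col-0, against 140, 131 and 135 for pp4r3a-1 and 109, 118 and 83 for pp4r3a-2, or 84.0% and 67.2%, beside exon levels of 19.1% and 24.9%. In AT5G02160 the overlapping AT5G02150 may add to either count. Introns per 100 exon counts in DYL1 were 0.121 in Col-0, 0.948 for pp4r3a-1 and 0.556 for pp4r3a-2, and in AT5G02160 1.09, 4.78 and 2.98. CHL and BOA, which fell short of the 10-count minimum, stood at 81.7% and 67.8% and at 63.8% and 65.9%.

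Intron counts were also tested between the alleles, over 12462 loci. Of 16 of the 36 genes that could be tested, 2 were higher in pp4r3a-2 and 3 lower by edgeR's test, while 7.05% and 10.8% of all loci tested were higher and lower. SCPL13 introns were higher in pp4r3a-2 by 1.37 (SE 0.14; edgeR adjusted p 1.93e-15), in the direction of its exons. OEP6 introns were higher by 0.96 (SE 0.34; edgeR adjusted p 0.0354), while its exons were lower by -0.20. PCC1, with 19, 32 and 22 intron counts for pp4r3a-1 and 8, 13 and 10 for pp4r3a-2, had lower introns in pp4r3a-2 by -1.11 (SE 0.30; edgeR adjusted p 0.00327) and higher exons by 0.50. Without pp4r3a-1 replicate 2 the PCC1 intron difference was -0.87 with an edgeR adjusted p of 0.0693, and none of the 3 lower calls was made. The calls of OEP6, AGL14, which had no intron count in pp4r3a-2, and AT1G07887 were each lost in several fits without 1 library.

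**Figure D5:**
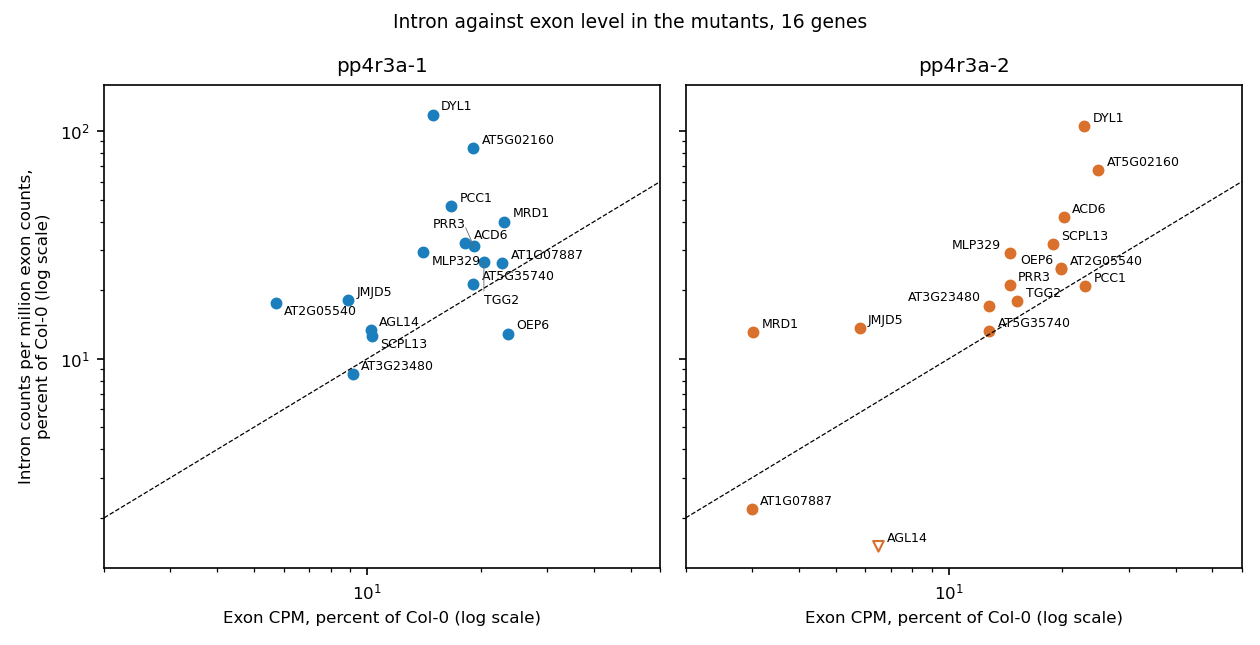
Intron level (counts per 1e6 exon counts) against exon level (CPM), each as percent of Col-0 on log scales, for the 16 genes that reached 10 intron counts in every Col-0 library, 1 panel per allele. The dashed line marks equal percentages; DYL1 at 118% and 105% and AT5G02160 at 84.0% and 67.2% are the highest intron levels in each panel, and the open triangle for AGL14 stands for 0 intron counts in pp4r3a-2.

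The limit of 0.25 cuts through a continuous range. The members nearest to it by the larger of their mutant to Col-0 ratios were AGL24 at 0.244, AT4G28900 and AT5G35940 at 0.247, AT5G02160 at 0.249 and AT3G16670 at 0.25. Just outside lay AT3G57770 and AT4G04410 at 0.253, the cell wall enzyme gene XTH25 at 0.255, and AT4G30690 and AT3G05945 at 0.257. Below the Col-0 minimum, AT1G07187 at 4.69 CPM, MEE3 at 4.64 CPM and CRK4 at 4.55 CPM met the ratio limit.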

How the data were processed

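The authors' deposited tables hold, per the file headers, raw exon counts and intron counts for 37869 loci in 9 libraries. Per the submitters' processing notes reads were aligned with STAR, version not given. The build, annotation, counter, strandedness and intron rule were not stated in the sources used here. Of the loci 37573 were found in TAIR10.1 and 296 were not.

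The genes and gene lists were chosen with earlier results of these data known. Exon counts were filtered with filterByExpr (22631 genes left), given TMM factors and modelled by quasi-likelihood in edgeR (robust option, all 9 libraries, no block), and two-sided p-values were adjusted by Benjamini-Hochberg over all genes tested. Intron counts (12462 loci) used the same scaling. SE is the absolute log2 change over the square root of F. P-values, SEs and the floor of 3 counts cover counting error and the spread of 3 replicates at most. The 36 genes were never tested against Col-0.

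Values per library were given for the 8 most abundant, the 8 lowest by larger ratio, the 6 furthest apart between alleles in each direction, those in a list and those with 10 or more intron counts in each Col-0 library. Further members were given them after their values were seen. Of lists that hold a member, and of the morning clock list, up to 4 other genes were named by smallest larger p. Counts for the other lists stand in the closing section. The steps were tested on simulated data. The tools were edgeR 4.0.16 and DESeq2 1.42.0 under R 4.3.3, with numpy 2.4.6, pandas 2.3.3 and matplotlib 3.10.9 under Python 3.11.15.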

Additional observations from a re-analysis of the deposited data

Results flagged for a closer look

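In 25 of the 36 genes the effect of the 2 alleles differed by edgeR's test of the difference itself, given here as log2 pp4r3a-2 minus pp4r3a-1. Over all 22631 genes tested, 24.2% were higher and 23.7% lower in pp4r3a-2 by the same test. Lower in pp4r3a-2 were MRD1 (-2.89), AT1G07887 (-2.88), AT1G52060 (-1.48), AT5G62340 (-1.12), AT4G28900 (-0.88), JMJD5 (-0.58), AT5G35740 (-0.55), TGG2 (-0.38), PRR3 (-0.36) and OEP6 (-0.20). Higher in pp4r3a-2 were ACD6 (0.19), CHL (0.27), AT5G02160 (0.42), TI2 (0.43), AT1G23050 and AT1G23052 (0.49 each), PCC1 (0.50), AT3G18320 (0.62), AT3G16670 (0.64), AT4G04630 and DYL1 (0.66 each), SCPL13 and AT5G00650 (0.91 each), AT2G05540 (1.83) and MES18 (2.11). MRD1 with AT1G07887, and AT1G23050 with AT1G23052, share reads and are not separate observations. Groups of 3 samples are too small for a screen of single values within a group, so none was made; the library pp4r3a-2 replicate 3 was set apart by its chloroplast share and by its counts over all loci.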

How the results depend on the processing

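With a ratio limit of 0.2 the rule picked 15 loci and with 0.3 it picked 68, against 36. The other settings gave 24 to 53, and leaving out a library 29 to 38, the lowest without Col-0 replicate 3. TMM scaling lost RL4, AT3G16670 and AT5G02160. Exon calls between alleles ran from 12 to 15 higher and 9 to 11 lower over all alternatives, DESeq2 (13 and 10) included. TI2 lost its call with DESeq2, library size scaling or 4 of the mutant libraries left out, and AT3G18320 without pp4r3a-1 replicate 1 or pp4r3a-2 replicate 2. Listed genes gave 71 to 75 higher in both alleles and 53 to 58 lower. The 1 root marker lower in both alleles became 0 with DESeq2, no filter, an adjusted p under 0.01 or 5 of the libraries left out in turn, and the 2 higher brassinosteroid genes became 1 with library size scaling, an adjusted p under 0.01 or 3 of them left out. The 1 lower leaf marker became 2 with library size scaling and 0 without pp4r3a-2 replicate 3, which also made the 1 lower salicylic acid gene 2. Intron calls fell from 2 higher to 1 with no filter, and from 2 and 3 to 1 and 1 at an adjusted p under 0.01. Leaving out a library gave 1 to 2 higher and 0 to 4 lower, with 0 lower without pp4r3a-1 replicate 2 and 1 without pp4r3a-2 replicate 1. With so few calls the intron counts say little. The cause of these moves was not tested. Same-numbered libraries of different genotypes had correlations from -0.04 to 0.03 in their deviations, so the numbers do not pair them, and the replicate block gave 15 and 10 exon calls, 2 and 3 intron calls, and 74 and 55 listed genes. No result reversed. Depth limits MES18, AT5G00650 and most introns.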

Other observations

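Lists that hold none of the 36 genes were counted by genes higher or lower in both alleles by edgeR's test, calls met by 28.4% and 28.6% of all 22631 genes tested. Of 16 nitrate response genes 12 fell and 0 rose (medians -0.87 and -0.72), and of 9 type-A cytokinin response regulators 5 fell and 0 rose. Of 10 sulfur deficiency genes 9 rose and 1 fell (medians 3.42 and 2.34), of 15 iron deficiency genes 12 rose and 2 fell (2.15 and 1.49), and of 16 PIF targets and genes of shade growth, PIF4 and PIL6 themselves included, 11 rose and 0 fell (0.75 and 1.23). Of 8 brassinosteroid metabolism genes 2 rose and 4 fell. Nearer to the shares over all genes, of 9 cold response genes 2 rose and 3 fell, and of 6 copper amine oxidase genes 2 rose and 2 fell. Among the tissue markers, 2 of 5 leaf genes rose and 1 fell, 2 of 8 root genes rose and 1, PHO1, fell, and of the 2 floral genes tested 0 rose and 0 fell; in pp4r3a-1 alone 1 of these, SEP3, fell.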
